A study of Mus musculus with 6 samples.

Results

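The genes described here were 10 that encode or complete major histocompatibility complex (MHC) class I molecules in the mouse, out of 55401 genes counted. They were the classical heavy chains H2-K1 and H2-D1, the Q-region heavy chains H2-Q4, H2-Q6 and H2-Q7, the T-region heavy chains H2-T22, H2-T23 and H2-T24, the M-region heavy chain H2-M3, and B2m, the light chain. They were picked by name, with their strain differences in these same libraries already known, so their differences are given as a description and without a test. RNA-seq was carried out on microglia, the resident macrophages of the brain, isolated from MRL/lpr lupus mice and from MRL/mpj control mice. Each strain had 3 libraries, from untreated animals aged 6 weeks. The lpr mutation disrupts Fas, a death receptor of lymphocytes, on the MRL background and leads to a lupus-like disease. By strain name, MRL/mpj mice share the background but not the mutation, and neither point was tested in these libraries. The study counts its replicates as mice, and the labels give neither the number of animals behind a library nor the H2 haplotype they carried. The question was which transcripts differ between microglia of lupus mice and of control mice.

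Class I molecules sit on nearly all nucleated cells and consist of a heavy chain held together by β2-microglobulin, the product of B2m. Proteasomes cut cytosolic proteins into peptides, the TAP transporter carries these into the endoplasmic reticulum, and the loading complex fits them into the heavy chain before it travels to the surface. Classical heavy chains are highly polymorphic and show peptides to CD8 T cells, whereas the Q, T and M chains are less variable and many of them bind receptors on NK cells or unconventional T cells. Resting microglia carry little class I, and interferons are known inducers of it.

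The libraries held between 45481609 and 49846634 counts each, and 19554 genes had enough counts to be tested. Values of 4 counts were more frequent than 3 or 5 counts in every library (1138 to 1288 genes against 211 to 415), so depth in reads is lower than the totals. MRL/lpr replicate 3 stood apart in 1 transcript, CT010467.1, which took 6.38% of its counts against 0.169 to 0.457% in the other libraries. Fas itself had 461, 282 and 298 counts in MRL/lpr and 426, 432 and 362 in MRL/mpj, and gene-level counts cannot tell mutant transcripts from normal ones. For Xist, counts were 8886 to 11319 in MRL/lpr and 27 to 38 in MRL/mpj. The methods name female mice, the labels give no sex, and a difference of sex cannot be told apart from a difference of strain in any result here. Microglial markers summed to between 23020 and 26020 CPM in MRL/lpr and between 26960 and 28130 in MRL/mpj, with 3 of 11 lower by edgeR. CPM here is counts scaled by library total and by TMM, the between-library scaling of the edgeR fit. The T cell list summed to 13.6 to 20.4 CPM against 3.54 to 4.22 (5 of 6 higher), the NK cell list to 10.1 to 10.2 against 2.86 to 4.07 (3 of 5 higher), and the plasma cell list to 19.7 to 21.3 against 5.21 to 5.95 (2 of 3 tested higher, with Mzb1 at 0 in all MRL/mpj libraries). In the NK cell list the higher genes were Eomes, Gzma and Prf1. Klrb1c (23, 0 and 0 counts in MRL/lpr against 75, 16 and 82) and Ncr1 (27, 25 and 0 against 7, 21 and 0) did not pass the test. Endothelial markers summed to 1356 to 1545 CPM against 1208 to 1242, with 2 of 5 higher. The ranges of the strains overlapped for the B cell list (9.20 to 10.5 against 8.43 to 10 CPM), the dendritic cell list (19.6 to 23.9 against 16.9 to 20.3) and the astrocyte list (57.0 to 63.2 against 51.6 to 61.4). Monocyte markers summed to 72.1 to 79.8 CPM against 80.7 to 87.4, with 2 of 5 higher and 1 lower. Border macrophage markers summed to 26.3 to 32.0 CPM against 31.8 to 37.0, ranges that overlapped, with 1 of 4 lower. Lower too were 2 of 5 neuronal (9.77 to 13.7 against 22.5 to 25.4 CPM) and 2 of 5 oligodendrocyte markers (84.0 to 99.3 against 123 to 152 CPM). In such bulk libraries, fewer cells of a type and less RNA per cell cannot be told apart, and the part of these other cells in the class I values was not tested.

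Promoters of class I genes are a textbook case of a shared regulatory module, with an enhancer A that binds NF-κB, an interferon-stimulated response element that binds interferon regulatory factors, and an SXY module bound by RFX, CREB-family and NF-Y factors that recruits NLRC5. RefSeq promoters on GRCm38.p6 were at hand for 9 of the 10 genes, and not for H2-T24. The stretches below run 5′ to 3′ along each gene's strand. They are shown because H2-K1 and H2-Q4, higher in MRL/lpr, and H2-D1, H2-Q6 and H2-Q7, lower in it, carry near-identical versions. Those of H2-T22 and B2m, both higher, differ more and hold no match to the NF-κB site. Those of H2-T23 and H2-M3, also higher, are not printed. Capitals mark matches, on either strand, to GGGATTNCC for the NF-κB site, AANNGAAA for the interferon regulatory factor site, TGNTGAC for the X2 box and CCAAT for the Y box. The stretches lie at chr17:34000348-34000469 (minus strand) for H2-K1, chr17:35262912-35263033 (plus) for H2-D1, chr17:35379432-35379553 (plus) for H2-Q4, chr17:35424666-35424787 (plus) for H2-Q6, chr17:35439011-35439131 (plus) for H2-Q7, chr17:36042820-36042945 (minus) for H2-T22 and chr2:122147538-122147644 (plus) for B2m.
H2-K1: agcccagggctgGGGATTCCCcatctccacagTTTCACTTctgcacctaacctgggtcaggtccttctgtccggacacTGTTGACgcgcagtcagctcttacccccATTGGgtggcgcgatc
H2-D1: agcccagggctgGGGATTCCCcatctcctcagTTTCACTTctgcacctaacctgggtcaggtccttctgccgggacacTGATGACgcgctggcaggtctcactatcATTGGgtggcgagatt
H2-Q4: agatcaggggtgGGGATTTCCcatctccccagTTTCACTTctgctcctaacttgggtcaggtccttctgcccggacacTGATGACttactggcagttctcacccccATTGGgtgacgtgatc
H2-Q6: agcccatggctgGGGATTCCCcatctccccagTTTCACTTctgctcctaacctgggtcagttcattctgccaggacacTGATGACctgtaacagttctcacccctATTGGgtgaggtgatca
H2-Q7: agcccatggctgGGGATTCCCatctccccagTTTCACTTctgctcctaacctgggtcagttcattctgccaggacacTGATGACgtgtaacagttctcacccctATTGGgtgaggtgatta
H2-T22: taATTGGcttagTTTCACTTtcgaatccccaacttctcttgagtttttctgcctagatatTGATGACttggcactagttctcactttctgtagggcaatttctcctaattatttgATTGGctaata
B2m: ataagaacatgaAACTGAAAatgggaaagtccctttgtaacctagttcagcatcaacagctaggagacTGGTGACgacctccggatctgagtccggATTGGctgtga

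GGGATTNCC was present in 5 of the 9 promoters (H2-K1, H2-D1, H2-Q4, H2-Q6 and H2-Q7) and in 0.984% of 27025 mouse promoters of the same length, each reaching from 250 bases before to 50 after the start. Each of the other motifs was present in all 9, against 24.3% of all promoters for AANNGAAA, 14.3% for TGNTGAC and 37.6% for CCAAT. The ordered arrangement, with AANNGAAA 40 to 60 bases ahead of TGNTGAC and that 10 to 60 bases ahead of CCAAT, was found in 8 of the 9 (H2-T23 lacked it) and in 0.0703% of all promoters. The motifs and spacings were chosen after these promoters had been read, so the shares describe them and test nothing. The first spacing was 46 bases in H2-K1, H2-D1, H2-Q4, H2-Q6 and H2-Q7, 48 in H2-T22 and 56 in B2m. The sequences are those of the reference strain, C57BL/6J, and MRL alleles may differ from them.

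Of the 10 genes, 7 were higher and 3 were lower in MRL/lpr, and for each of them the 3 libraries of one strain lay apart from the 3 of the other. Libraries of the strains lay apart for 39% of all tested genes. By the thresholds of the study's methods (log2 fold change of 1 or more in either direction, with adjusted p below 0.05, here from edgeR), 4 genes were called higher and 3 lower, where 4.67% and 3.66% of all tested genes were called in these directions and 8.34% in either. By adjusted p alone 7 were higher and 3 lower, where 20.2% of all tested genes passed (11.1% higher, 9.06% lower). Since the genes were picked from this contrast, nothing is read from these counts. The median log2 fold change was 0.89 for the 10 genes and -0.01 for all tested genes. Standard errors of the 10 genes ran from 0.06 to 0.15, and the coefficient of variation of CPM within a strain from 0.885 to 14.8%.

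**Figure D1:**
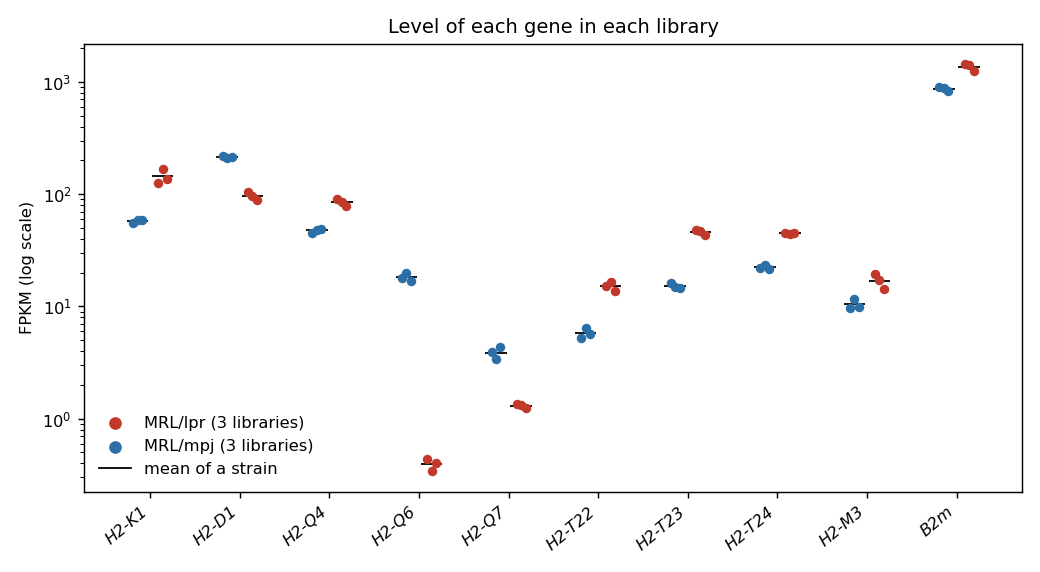
FPKM, a level scaled by transcript length and library depth, on a log axis for each of the 10 genes, with 1 point per library and a line at the mean of each strain (3 libraries each). B2m tops both strains, H2-K1 lies above H2-D1 in MRL/lpr and below it in MRL/mpj, and H2-Q6 spans the widest gap between strains.

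H2-K1 (ENSMUSG00000061232, chr17:33996017-34000347 on GRCm38, minus strand) encodes the classical K chain and lies nearest the centromere of the 9 heavy chain genes. Its FPKM values were 127, 169 and 136 in MRL/lpr replicates 1 to 3 and 55.7, 58.8 and 58.5 in MRL/mpj. Every MRL/lpr library was above every MRL/mpj library, and MRL/lpr replicate 2 was the highest of the 6. The log2 fold change of its counts was 1.44 (SE 0.10), or 2.71-fold higher in MRL/lpr.

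H2-D1 (ENSMUSG00000073411, chr17:35262730-35267499, plus strand), the other classical chain, differed in the opposite direction. In FPKM it had 104, 95.5 and 89.2 in MRL/lpr and 221, 212 and 214 in MRL/mpj. The 3 MRL/lpr libraries were close to each other and each lay below every MRL/mpj library. The log2 fold change was -1.04 (SE 0.06), or 2.06-fold lower. The gene lies 1.27 Mb from H2-K1, and the promoter stretches of both, printed above, share the same 4 motifs at the same spacings.

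The opposite differences changed which classical chain had the higher FPKM. The ratio of H2-K1 to H2-D1 FPKM was 1.22, 1.77 and 1.52 in the MRL/lpr libraries and 0.252, 0.277 and 0.274 in the MRL/mpj libraries. H2-K1 thus exceeded H2-D1 in 3 of 3 MRL/lpr libraries and in 0 of 3 MRL/mpj libraries. The sum of both chains differed far less, at 230, 265 and 225 FPKM against 277, 271 and 272. In the deposited FPKM each MRL/lpr sum was below each MRL/mpj sum. Mean CPM of H2-K1 and H2-D1 was 494 and 290 in MRL/lpr against 182 and 598 in MRL/mpj. On that scale the MRL/lpr sum was not the lower, so the order of the sums depends on the scale.

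H2-Q4 (ENSMUSG00000035929, chr17:35379617-35385290, plus strand) was the most abundant Q-region chain in both strains. It had FPKM values of 91.2, 84.5 and 78.0 in MRL/lpr and 45.3, 47.9 and 49.3 in MRL/mpj. All 3 MRL/lpr libraries were higher. The log2 fold change was 0.95 (SE 0.07), or 1.93-fold, just under the fold threshold.

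H2-Q6 (ENSMUSG00000073409, chr17:35424850-35430055, plus strand) encodes a Qa-2 chain and had the widest strain difference of the 10. Its counts were 50, 38 and 42 in MRL/lpr and 2067, 2208 and 1971 in MRL/mpj. All MRL/lpr libraries held some counts, and each was far below every MRL/mpj library. In FPKM the means were 0.393 ± 0.0503 (SD, n = 3) and 18.2 ± 1.43 (n = 3). The log2 fold change was -5.41 (SE 0.15), or 42.4-fold lower, and it depended on the scale, being -3.78 on log2(FPKM + 1).

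H2-Q7 (ENSMUSG00000060550, chr17:35439155-35443773, plus strand) is the neighbouring Qa-2 gene. It had 308, 306 and 269 counts in MRL/lpr and 926, 778 and 1031 in MRL/mpj. The MRL/lpr libraries were again all lower, with a log2 fold change of -1.45 (SE 0.14), or 2.74-fold. The ratio of H2-Q6 to H2-Q7 FPKM was 0.258 to 0.328 in MRL/lpr and 3.91 to 5.80 in MRL/mpj, so their order was the reverse between strains. These genes are close copies, and 10.8% of the 100-base stretches of annotated H2-Q6 transcripts and 12% of those of H2-Q7 also occur in other genes, chiefly each other, H2-Q5 and H2-Q10. Reads from such stretches could have been assigned to either copy.

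H2-T23 (ENSMUSG00000067212, chr17:36029773-36032855, minus strand) encodes Qa-1, the ligand of the NKG2A receptor of NK cells and CD8 T cells. Its FPKM values were 48.4, 47.3 and 43.5 in MRL/lpr and 16.2, 14.9 and 14.5 in MRL/mpj. Every MRL/lpr library was higher, and the log2 fold change of 1.73 (SE 0.07), or 3.32-fold, was the highest of the 7 genes above 0. The ratio of H2-T23 to H2-D1 FPKM was 0.465 to 0.495 in MRL/lpr and 0.0679 to 0.0731 in MRL/mpj.

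H2-T22 (ENSMUSG00000056116, chr17:36037128-36042747, minus strand) encodes a chain that presents no peptide and is bound by some γδ T cells. The libraries had FPKM values of 15.2, 16.4 and 13.8 in MRL/lpr and 5.19, 6.42 and 5.67 in MRL/mpj. The libraries of the strains lay well apart, and the log2 fold change was 1.51 (SE 0.10), or 2.85-fold. Its near copy H2-T10, in which 6.92% of its 100-base stretches also occur, had 440, 516 and 370 counts in MRL/lpr and 425, 458 and 350 in MRL/mpj and did not pass the test (log2 fold change 0.27, edgeR adjusted p = 0.318).

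H2-T24 (ENSMUSG00000053835, chr17:36005695-36020560, minus strand) is the third T-region chain. Its FPKM values were 45.5, 44.2 and 45.4 in MRL/lpr and 22.1, 23.4 and 21.7 in MRL/mpj. Each MRL/lpr library lay above each MRL/mpj library, with a log2 fold change of 1.13 (SE 0.07), or 2.19-fold. H2-T24, H2-M3 and B2m shared no 100-base stretch with another annotated gene. An annotated gene on the opposite strand overlaps H2-T22, H2-T23 and H2-T24 (A930015D03Rik, 41 to 211 counts) and another overlaps H2-Q4 (Gm11131, 134 to 219 counts), and since the counting was not stated to use strand, reads of such partners cannot be told apart.

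H2-M3 (ENSMUSG00000016206, chr17:37270220-37274484, plus strand) encodes a chain that presents N-formylated peptides, typical of bacteria and mitochondria. FPKM values were 19.5, 17.2 and 14.3 in MRL/lpr and 9.76, 11.6 and 9.97 in MRL/mpj. The lowest MRL/lpr library was above the highest MRL/mpj library, though by less than for the other heavy chains above 0. The log2 fold change was 0.82 (SE 0.13), or 1.77-fold, the lowest of the heavy chains above 0, and the gene lies farthest of them from H2-K1, at 3.27 Mb.

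B2m (ENSMUSG00000060802, chr2:122147686-122153083, plus strand) lies on another chromosome and encodes the light chain that class I heavy chains need to reach the surface. It was the most abundant of the 10 in every library, with FPKM values of 1436, 1404 and 1250 in MRL/lpr and 898, 879 and 838 in MRL/mpj. All MRL/lpr libraries were higher, and the log2 fold change was 0.76 (SE 0.06), or 1.70-fold, the lowest of the 7 genes above 0. Per unit of summed heavy chain FPKM, B2m was 3.18, 2.95 and 2.97 in MRL/lpr and 2.26, 2.21 and 2.12 in MRL/mpj. The ratio was higher in all 3 MRL/lpr libraries. FPKM leans on the gene length used, which was 964 bases for B2m and up to 4783 bases for H2-Q7 as implied by the deposited counts and FPKM.

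**Figure D2:**
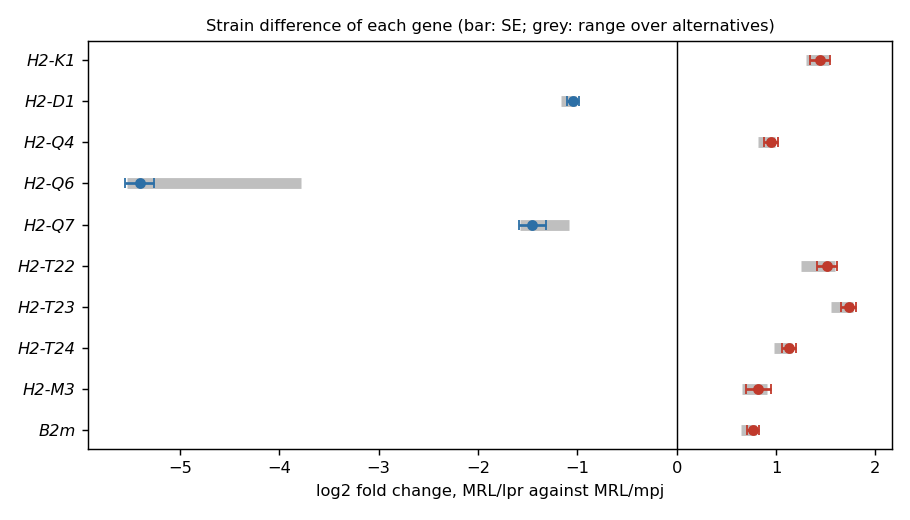
Log2 fold change of counts, MRL/lpr against MRL/mpj, for each gene (point, with a bar of 1 SE from edgeR over 3 libraries per strain) and the range of that value over the alternative settings (grey). H2-D1, H2-Q6 and H2-Q7 lie below 0 and the other 7 genes above 0, and no grey range crosses 0.

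The summed FPKM of the 9 heavy chains was 452, 476 and 422 in MRL/lpr and 397, 398 and 395 in MRL/mpj. The sums differed much less than most of their parts. The 6 heavy chains above 0 summed to 352 ± 24.5 FPKM in MRL/lpr and 159 ± 4.50 in MRL/mpj, while the 3 below 0 summed to 97.9 ± 7.46 and 238 ± 4.35 (SD, n = 3 each). H2-D1 was 54.4 ± 1.20% of the sum in MRL/mpj and 21.4 ± 1.48% in MRL/lpr, and H2-K1 was 14.5 ± 0.438% and 31.9 ± 3.80%. The share of H2-Q4 was 18.8 ± 1.25% in MRL/lpr and 11.98 ± 0.550% in MRL/mpj, and that of H2-T23 was 10.3 ± 0.384% and 3.83 ± 0.212%. H2-Q6 made up 4.58 ± 0.338% in MRL/mpj and 0.0879% in MRL/lpr. Both classical chains together came to 53.3 ± 2.33% in MRL/lpr and 68.9 ± 0.833% in MRL/mpj.

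**Figure D3:**
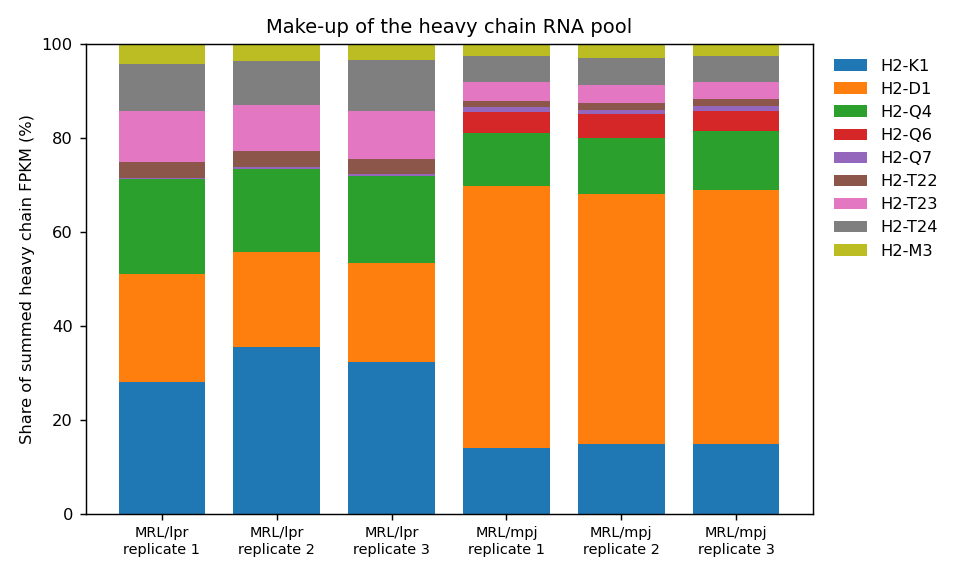
Share of each heavy chain in the summed FPKM of the 9 heavy chains (percent, stacked bars), with 1 bar per library. H2-D1 fills 53.3 to 55.7% of each MRL/mpj bar and 20.06 to 22.99% of each MRL/lpr bar, where H2-K1 fills the widest part (27.99 to 35.57%).

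Ordered by FPKM in MRL/lpr, the genes ran B2m, H2-K1, H2-D1, H2-Q4, H2-T23, H2-T24, H2-M3, H2-T22, H2-Q7 and H2-Q6. The ranges over libraries overlapped between H2-D1 and H2-Q4, between H2-T23 and H2-T24, and between H2-M3 and H2-T22. Within a library, H2-D1 was above H2-Q4 and H2-M3 above H2-T22 in all 3, while H2-T23 was above H2-T24 in replicates 1 and 2 and below it in replicate 3. In MRL/mpj the order was B2m, H2-D1, H2-K1, H2-Q4, H2-T24, H2-Q6, H2-T23, H2-M3, H2-T22 and H2-Q7, and the ranges of no neighbours overlapped. H2-Q6 was sixth in MRL/mpj and last in MRL/lpr.

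The genes nearest to B2m in pattern were Adrb1, Tmc4, Slc15a3, Sqstm1 and Cep152. Likeness was the root mean square difference of centred log2 CPM over the 6 libraries, which came to 0.0286, 0.0296, 0.0318, 0.0318 and 0.0357 for these genes. Their own log2 fold changes were 0.75, 0.78, 0.81, 0.72 and 0.73. Slc15a3 is a lysosomal peptide and histidine transporter and Sqstm1 is the autophagy receptor p62.

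Taken by symbol (H2-K, D, L, Q, T or M with a number, or H2-Bl), the class I family of the H2 region held 22 further genes, of which 10 were at 0 in every library and 8 could be tested. The pseudogene H2-K2, next to H2-K1, was higher, with 772, 796 and 655 counts in MRL/lpr against 501, 404 and 437 (log2 fold change 0.90, SE 0.13, edgeR adjusted p = 0.00101). H2-Q1, between H2-D1 and H2-Q4, was lower, with 263, 307 and 201 counts against 790, 1106 and 1186 (-1.83, SE 0.19, adjusted p = 0.000141). H2-Q5 was at 0 in all 3 MRL/lpr libraries and had counts of 156, 182 and 23 in MRL/mpj (edgeR adjusted p = 0.00919). With each MRL/lpr library set at a floor of 3 counts, it was 35.7-fold lower. That floor may lie below a single read, so the fold is not a lower bound. H2-Q5 fell under the low-count filter when counts were divided by 4. These family genes thus also lay on both sides of 0. The pseudogene H2-T-ps, outside this symbol rule and named after its values were seen, had 592, 501 and 657 counts against 302, 325 and 364 (2.01-fold higher, SE 0.18 on the log2 scale, edgeR adjusted p = 0.00318). H2-Q2, H2-Q10, H2-Bl, H2-T10 and H2-M2 did not pass the test. H2-Q10 varied widely within a strain (160, 1382 and 574 counts against 645, 395 and 869), and H2-Q2 had counts in 1 MRL/lpr library (69) and in 2 MRL/mpj libraries (98 and 95).

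Across the stretch of chromosome 17 that spans the class I genes (chr17:33974659-37483552 on GRCm38), 148 other genes were tested, and 21 were called higher and 6 lower in MRL/lpr. This is 18.2% of them, against 8.34% of all tested genes. Genes called higher and genes called lower both lay among the class I chains. Msh5, a meiotic mismatch repair gene, had 14556, 14397 and 12747 counts in MRL/lpr and 2165, 2304 and 2601 in MRL/mpj (log2 fold change 2.74, SE 0.08, edgeR adjusted p = 9.9e-08). H2-Ea-ps, a class II gene annotated as a polymorphic pseudogene, had 1966, 1936 and 2103 counts against 87, 106 and 76 (4.66, SE 0.17, edgeR adjusted p = 2.96e-07). In the other direction, the class II gene H2-Eb2 had 0, 18 and 6 counts against 494, 427 and 504 (-5.70, SE 0.71, adjusted p = 0.00148), a value that rests on few MRL/lpr counts and moved to -7.04 when MRL/lpr replicate 2 was left out and to -5.10 when MRL/lpr replicate 1 was. Gm8750 was higher (2.75, SE 0.17, edgeR adjusted p = 5.46e-06), and Gm11127, a class I-like gene of the T region, was lower (-3.34, SE 0.34, adjusted p = 0.000124). Splitting the stretch at the class I genes, after the values were seen, gave 21.7% of 92 tested genes called up to H2-D1, 40% of 10 between H2-D1 and H2-Q10, 4.17% of 24 from there to H2-T24, and 10% of 20 from H2-T24 to H2-M3. Counts per gene do not separate alleles, and whether the libraries of both strains carried the same H2 alleles was not tested. Reads of alleles unlike the GRCm38 reference may be lost in alignment. The part of such losses in the class I differences, ratios and shares was not tested.

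**Figure D4:**
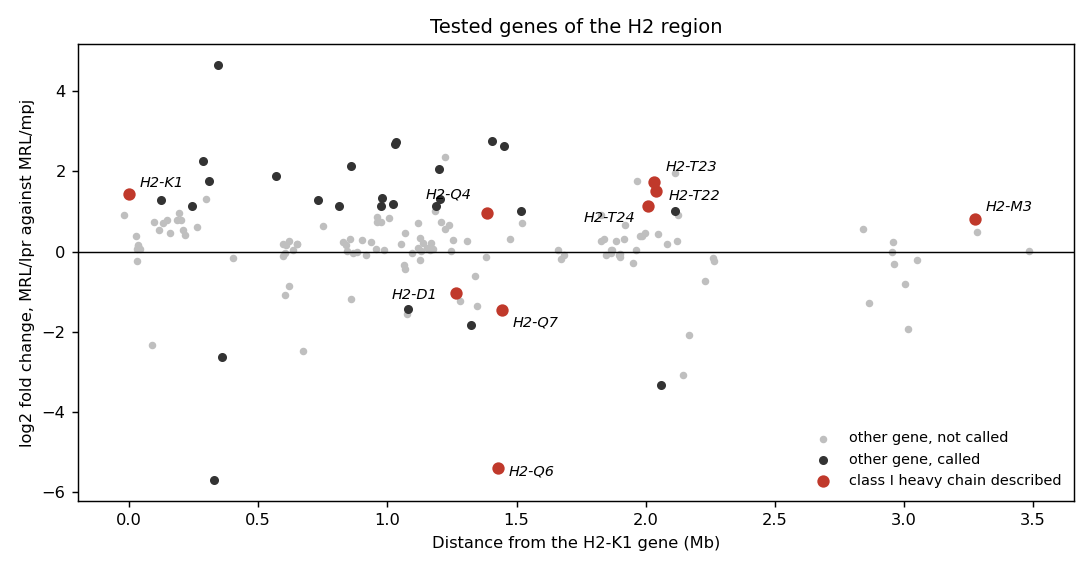
Log2 fold change, MRL/lpr against MRL/mpj, of each tested gene of the H2 region by its distance from the H2-K1 gene in Mb, with the 9 heavy chains in red, other called genes in black and the rest in grey. Heavy chains above and below 0 lie side by side between 1.27 Mb (H2-D1) and 1.44 Mb (H2-Q7), and H2-Q5 is left out because it was at 0 counts in all MRL/lpr libraries.

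Genes that act on class I were taken from 6 lists with 79 symbols, of which 75 matched a counted gene and 58 were tested. By edgeR, 21 were higher and 6 lower at an adjusted p under 0.05, where 11.1% and 9.06% of all tested genes passed in these directions, and their median log2 fold change was 0.30. Among 8 tested peptide loading genes, 3 were higher (log2 fold changes of 0.41 to 0.97) and 1 was lower (Canx, -0.22). The Canx call, named after its values were seen, was lost on leaving out MRL/lpr replicate 1 or 2 or any MRL/mpj replicate, with values from -0.24 to -0.21. It was also lost with a replicate block, at -0.22. Tap1, a subunit of the peptide transporter, was named after its values were seen and had a log2 fold change of 0.97 (SE 0.10, edgeR adjusted p = 0.000189). Tapbp, which encodes tapasin, the bridge between TAP and the heavy chain, had a value of 0.02 (adjusted p = 0.978). Of 9 tested proteasome genes 5 were higher, among them the immunoproteasome subunit Psmb8, also named after its values were seen (0.79, edgeR adjusted p = 0.000632). The 5 fell to 2 without MRL/mpj replicate 3 or with a replicate block. They fell to 3 without MRL/mpj replicate 1 and to 3 with scaling by library size alone.

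Of 16 tested regulators, 7 were higher, and 3 of them passed the fold threshold. Nlrc5, the transactivator of class I genes, had 1530, 1766 and 1369 counts in MRL/lpr and 482, 459 and 331 in MRL/mpj. Every MRL/lpr library had more than the highest MRL/mpj library, with a log2 fold change of 2.04 (SE 0.16, edgeR adjusted p = 2.36e-05). Stat2, of the type I interferon pathway, had a log2 fold change of 1.21 (SE 0.12, edgeR adjusted p = 0.000126). Irf1, an interferon-induced activator of class I promoters, had a value of 0.69 and did not pass (edgeR adjusted p = 0.194). It passed without MRL/mpj replicate 1, at 1.08, and with a replicate block, at 0.76.

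In the list of interferons and their receptors, 2 of 6 tested genes were lower. Ifngr1, the ligand-binding chain of the interferon-γ receptor, had a log2 fold change of -0.76 (SE 0.07). Ifnb1 had 380, 481 and 279 counts in MRL/lpr and 597, 658 and 717 in MRL/mpj (-0.63, SE 0.18, edgeR adjusted p = 0.0336). The Ifnb1 call was lost without any 1 of MRL/lpr replicate 1, MRL/lpr replicate 3 or the 3 MRL/mpj replicates, with values from -0.69 to -0.49. It was also lost with a replicate block, at -0.64. Ifng had 64, 71 and 26 counts against 5, 26 and 31 and did not pass (adjusted p = 0.159).

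Of 11 tested receptors for class I, 4 were higher. Cd8a, a chain of the CD8 co-receptor, had 159, 127 and 107 counts in MRL/lpr and 16, 16 and 27 in MRL/mpj (log2 fold change 2.90, SE 0.36, edgeR adjusted p = 0.000416). Cd8b1, the other chain, had 70, 77 and 28 counts and 0 in each MRL/mpj library. Against the floor of 3 counts per library it was 21.6-fold higher, which is again not a lower bound. Klrc1, which encodes the Qa-1 receptor NKG2A, had 42, 65 and 44 counts against 4, 0 and 8 (edgeR adjusted p = 0.0151), a call that was lost on leaving out either MRL/lpr replicate 2 (3.60) or MRL/mpj replicate 1 (3.79). These lymphocyte genes were higher in the same libraries as 5 of 6 T cell and 3 of 5 NK cell markers given above. The part of such cells in these values was not tested.

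Class I-like genes outside the H2 complex went both ways, with 2 higher and 3 lower of 8 tested. Cd1d1, which presents lipids to NKT cells, had 986, 909 and 644 counts in MRL/lpr and 225, 192 and 228 in MRL/mpj (log2 fold change 2.14, SE 0.16). Its copy Cd1d2 had 46, 97 and 60 counts against 0, 2 and 0. Procr, the endothelial protein C receptor, was lower, with 355, 341 and 228 counts against 1372, 1410 and 1597 (-2.08, SE 0.15).

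**Figure D5:**
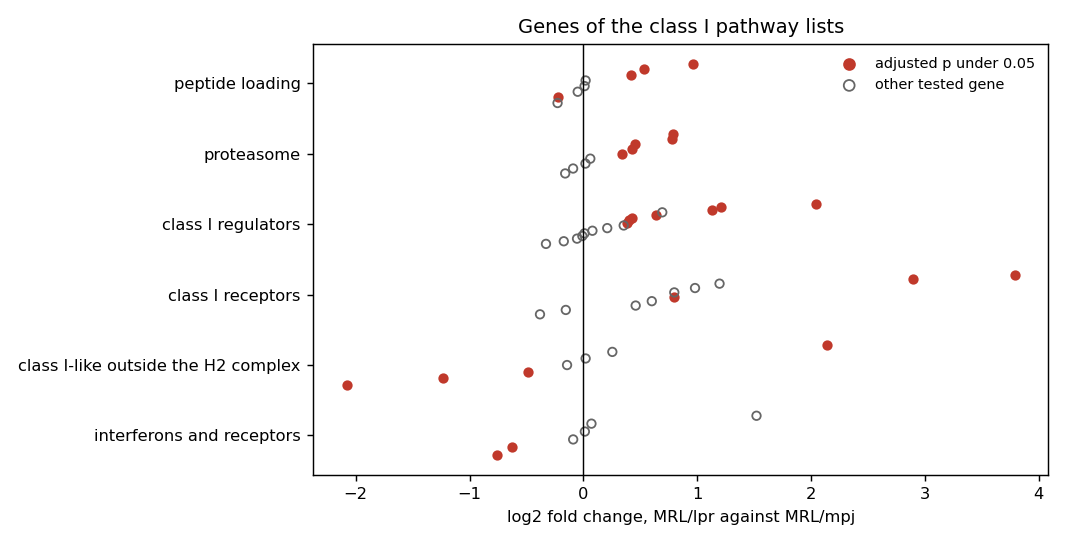
Log2 fold change, MRL/lpr against MRL/mpj, of each tested gene in the 6 lists, filled where the edgeR adjusted p was under 0.05 and open otherwise. Regulators and receptors hold filled points at 1 or more and peptide loading and proteasome genes none, and Cd8b1 and Cd1d2 are left out because their MRL/mpj libraries were at the floor of 3 counts or below.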

How the data were processed

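Microglia were selected by CD11b from mouse brain, with 3 libraries per strain grouped by the labels. Per the labels, libraries were made from rRNA-depleted total RNA with a stranded kit, while the methods describe mRNA purification. The submitters' processing notes name GRCm38, cutadapt 1.9.3, HISAT2 2.0.4, Cuffdiff 2.2.1 and Cufflinks. The counting tool and annotation are not given in the sources used here. The values deposited by the authors are raw gene counts (whole numbers) and, for each library, FPKM, which scales those counts by gene length and depth. Levels are the deposited FPKM, and levels between genes are compared in FPKM only.

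GENCODE M21 (GRCm38) gave symbols and coordinates for 55141 of 55401 identifiers. Differences were fitted over all genes with edgeR 4.0.16 in R 4.3.3 (quasi-likelihood test, TMM scaling, filterByExpr at 10 counts and a total of 15), with Benjamini-Hochberg adjustment over 19554 genes. A call needed a log2 fold change of 1 or more, up or down, and an adjusted p below 0.05. The coefficient of biological variation was 0.26. Between libraries of a strain the median chi-square of counts was 3.997 to 9.116, where sampling noise of single reads gives 0.455. Depth in reads is lower than the count totals, so noise on the count scale is larger than this. The values do not show whether libraries of a strain came from different animals. The study counts its replicates as mice, but the labels do not tie a library to an animal, and p-values measure the spread between these libraries. A single-value exact permutation test of 3 against 3 cannot go below p = 0.1 and was not used. The procedure was tested on simulated data. The 10 genes, the lists and the motifs were chosen with earlier results of these data known. Named genes were the 10 genes, the tested class I family, peptide loading, proteasome and regulator genes past both thresholds, up to 3 genes past the adjusted p in other lists, the 3 largest rises and falls of the H2 region with a mean of at least 50 counts, and the 5 genes nearest to B2m. A gene named by this rule is not reported here. Hm13, Raet1a, Raet1b and Raet1c matched no counted gene. Promoters came from RefSeq on GRCm38.p6. Alternatives were DESeq2 1.42.0, scaling by library size alone or by RLE size factors, no filter on low counts, counts divided by 4, log2(FPKM + 1) and log2(FPKM + 0.1), a replicate block and leaving out each library.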

Additional observations from a re-analysis of the deposited data

How the results depend on the processing

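Over 14 alternative settings for the 10 genes (140 values), 0 log2 fold changes changed sign, and 21 moved by more than the spread between libraries, all of them with scaling by library size alone or on the FPKM scale. Scaling by library size alone shifted the median log2 fold change of all tested genes from -0.01 to -0.13, and the calls over all genes from 914 higher and 716 lower to 766 higher and 932 lower. The H2-K1 share of the heavy chain sum in MRL/mpj was 16.4% by raw counts instead of 14.5% by FPKM. With counts divided by 4, 1 further class I gene was lower instead of 2, since H2-Q5 fell under the filter. Without MRL/lpr replicate 3, 10 genes of the H2 region were called lower instead of 6, and over all left-out libraries the range was 5 to 10. Leaving out 1 library at a time, calls over all genes ran from 1398 to 1650. Same-numbered libraries did not deviate together (correlations of -0.0409, -0.0202 and -0.0325), so the numbers do not pair them. A replicate block gave 1422 calls over all genes (806 higher, 616 lower), 19 pathway genes higher and 4 lower, and 2 proteasome genes higher. Of 845 single gene tests in the lists, the family and the named H2 region genes under alternatives, 36 lost and 9 gained the call. Depth limits H2-Q6 in MRL/lpr, at 38 to 50 counts a library.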
